A study of Mus musculus with 6 samples.

Results

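The translation initiation factors (eIF1 to eIF6) and elongation factors (eEF1 and eEF2) of the mouse were followed in cultured neural stem cells of aged and young animals. Members were chosen by gene symbol: symbols beginning with Eif1 to Eif6 or with Eef1 or Eef2 were taken, and 5 matching symbols, among them kinases of eIF2, were left out by the rule. This gave 58 genes of the 17006 in each table, of which 55 averaged 1 FPKM or more over the 6 libraries (FPKM is a count of fragments scaled to transcript length and library size). The Aged group held 3 libraries from C57BL/6 mice of 15 to 18 months, and the Young group 3 libraries from C57BL/6 mice of 2 months. No genetic change or drug treatment is given for either group. In both, subventricular zone tissue of 5 mice was pooled for dissociation, the cells were kept in proliferation medium, and total RNA was depleted of ribosomal RNA before sequencing. The libraries therefore describe cultured cells, and p-values measure the spread between libraries, which the labels do not tie to separate cultures.

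Translation begins when the small ribosomal subunit, carrying the eIF1, eIF1A and eIF3 factors and an initiator tRNA brought by eIF2, is recruited to the capped end of an mRNA by the eIF4F complex and scans to the start codon. eIF5 and eIF5B then let the large subunit join, eIF2B recharges eIF2 with GTP, and eEF1A, eEF1B and eEF2 drive each round of elongation. In the subventricular zone, where resting stem cells are known for low protein synthesis and activated ones for high, eIF4E and its inhibitors, the 4E-BPs, are a known control point downstream of mTOR.

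Read steps in the low values put the libraries at about 5260000 to 5480000 counted reads. Members took 2.44% to 2.48% of the summed FPKM of an Aged library and 2.48% of that of a Young library. The stem cell markers Sox2, Nes, Egfr, Fabp7, Vim, Olig2 and Mki67 were all present, with summed levels of 5343 to 5523 FPKM in Aged and 5425 to 5588 FPKM in Young libraries. None of the 7 passed, but 4 did not overlap between the ages, where 17.6% of the 11912 genes tested did not overlap in either direction. Sox2 averaged 181.7 FPKM in Aged and 170.6 FPKM in Young libraries, and Olig2 555.05 FPKM in Aged and 538.3 FPKM in Young libraries. Nes averaged 260.5 FPKM in Aged and 273.0 FPKM in Young libraries, and Vim, with a limma adjusted p of 0.0608, 1532 FPKM in Aged and 1659 FPKM in Young libraries. Microglial markers (3 of 4 in the tables) summed to 0.41 to 0.56 FPKM in Aged and 0.31 to 0.38 FPKM in Young libraries, and endothelial markers (3 of 4) to 0.37 to 0.57 FPKM in Aged and 0.32 to 1.04 FPKM in Young libraries. Neuron markers, mostly Snap25, summed to 4.44 to 6.08 FPKM in Aged and 3.58 to 4.25 FPKM in Young libraries. Markers of mature oligodendrocytes summed to 2.75 to 2.84 FPKM in Aged and 3.09 to 3.6 FPKM in Young libraries. Fibroblast markers, mostly Col1a1, summed to 2.68 to 3.72 FPKM in Aged and 0.35 to 0.58 FPKM in Young libraries, with 4 of 5 in the tables and Dcn listed at 0 in each Aged library. Col1a1 passed the test, with a log2 change of 1.28 and a limma adjusted p of 0.0107. The summed markers of neurons, fibroblasts, microglia and oligodendrocytes thus did not overlap between the ages. The part of these markers, and of the 4 stem cell markers, in the values of the translation factors was not tested. In bulk RNA, fewer cells of a type and less RNA per cell cannot be told apart.

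The comparison of Aged with Young libraries asks how the mRNA levels of the translation machinery differ with the age of the donor mice. No member passed the test: 0 of 55 were higher and 0 of 55 lower at a limma adjusted p under 0.05, against 0.327% and 0.395% of the 11912 genes tested (0.722% in either direction). At an unadjusted limma p under 0.05, 6 members (10.9%) were higher and 2 (3.64%) lower in Aged libraries, against 6.3% and 5.55% of all genes tested. The 6 were Eif4ebp1, Eif4a2, Eif2d, Eif2b2, Eif2b4 and Eif1ad, and the 2 were Eif3j2 and Eef1e1. The groups did not overlap, with Aged higher, in 7 members (12.7%), against a background of 8.98%, and with Aged lower in 5 (9.09%), against 8.58%. These shares lie near those of all genes.

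Differences were small. The median log2 change of FPKM + 1 was 0.0095 over the 55 members (-0.0041 after rescaling to TPM) and 0.0027 over all genes tested, and 35 of the 55 were above 0 (63.6%, against 51.0% of all genes). That count depends on scaling: each member that changed sign after rescaling to TPM fell below 0. There the median of all genes was -0.0103. The median absolute log2 change was 0.04 for members and 0.07 for all genes. Among genes averaging 10 FPKM or more it was 0.04 for 52 members and 0.05 for 6773 genes. Only Eif3j2 among members exceeded an absolute log2 change of 0.25, while 931 of the 11912 genes did (7.82%). The 95% limma intervals of the members, not adjusted for their number, reached down to -0.94 (Eif3j2) and up to 0.36 (Eif2b4). Replicates were close, with a median coefficient of variation of 3.74% in Aged and 3.44% in Young libraries.

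**Figure D1:**
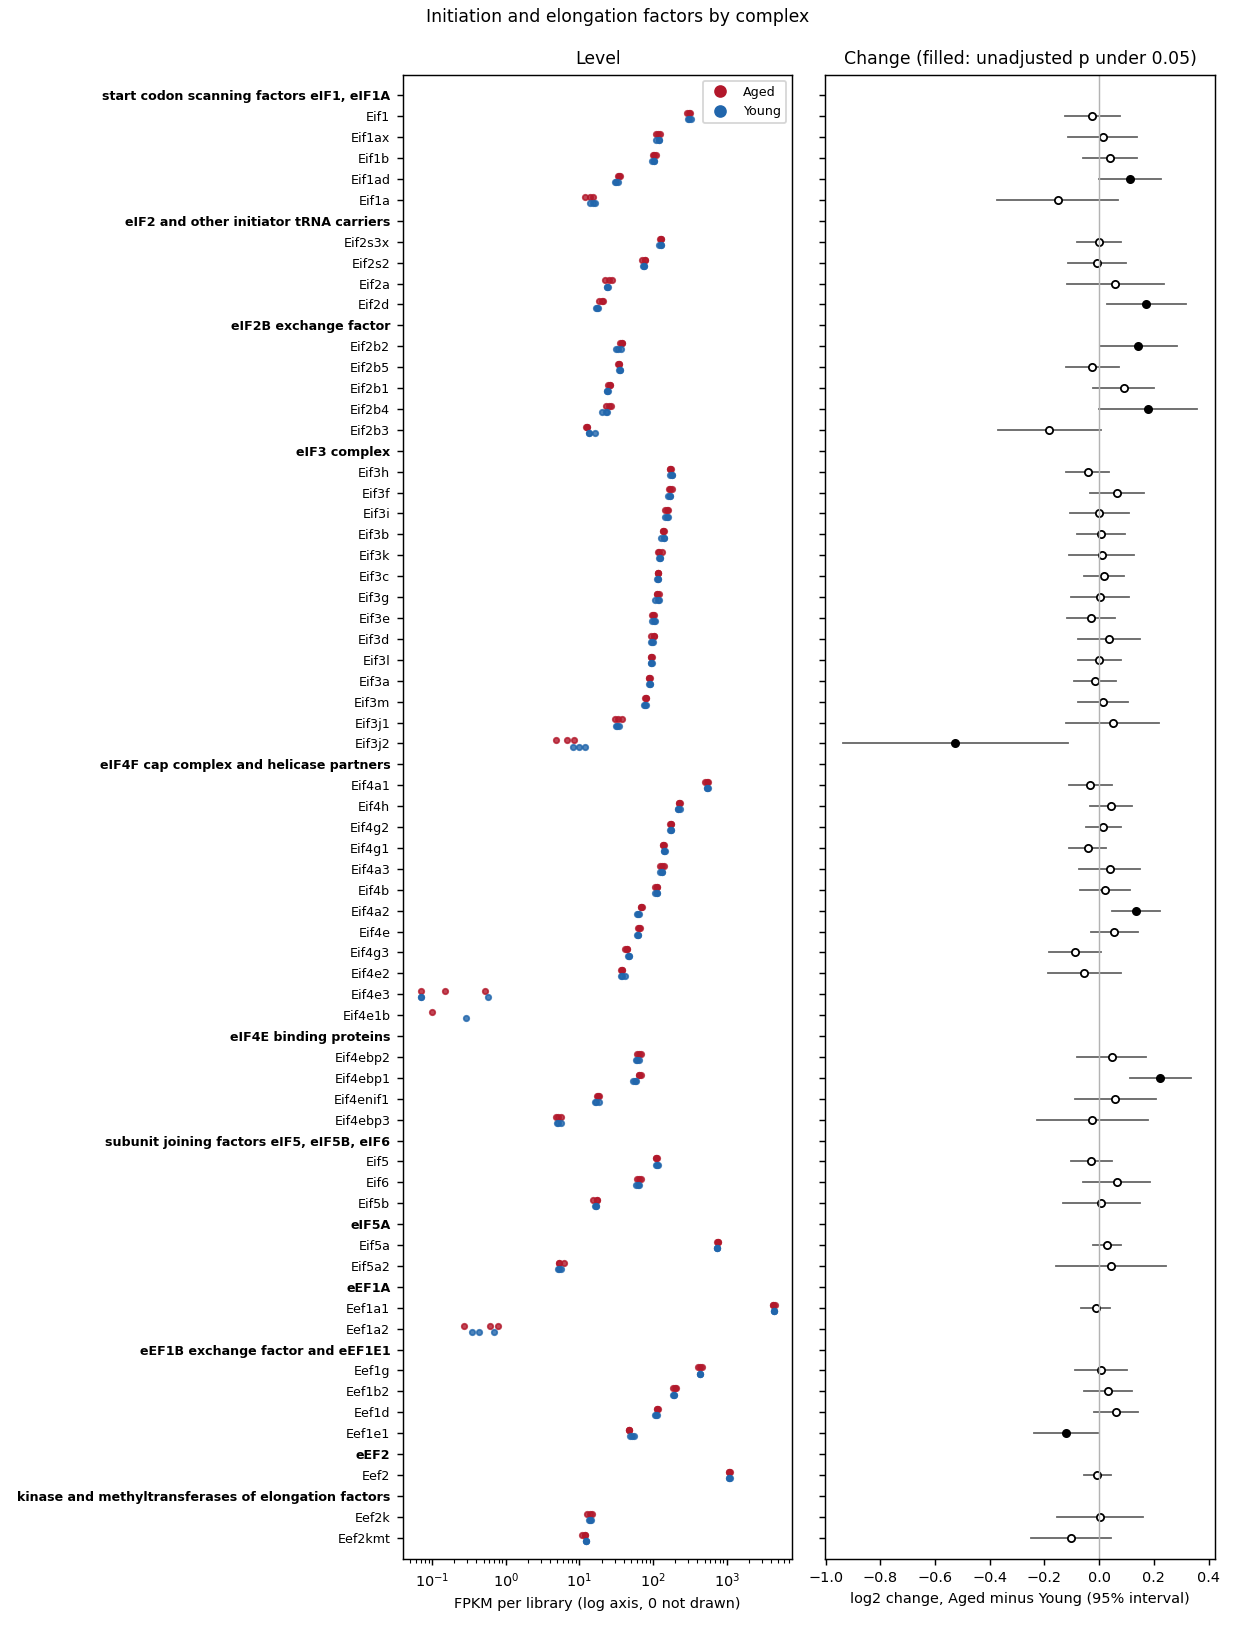
Left, FPKM of each member in each library on a log axis, Aged points drawn above Young ones, with members grouped by complex and ordered by mean. Right, log2 change of FPKM + 1 (Aged minus Young) with its 95% limma interval, filled where the unadjusted p was under 0.05. All tested members but Eif3j2 lay within 0.25 of a log2 change of 0.

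Sequence shared with other genes limits what some values can say. Of the 58 members, 20 had over 10% of the 50-base windows of their transcript also in a transcript of another gene in the GENCODE M21 annotation of GRCm38, and 18 had none. Matches in either orientation were counted. Eif1ad (15.1%), Eif3d (18.4%) and Eif5b (18.2%) shared windows only with a gene on the other strand. Processed pseudogenes were the main partners of Eif4a1 (65.3% of windows shared), Eef1g (64.3%) and Eef1a1 (60.6%), while Eif4ebp3 (65.5%) shared its windows with an overlapping gene model. Exons of 13 members overlapped exons of a gene on the other strand, among them Eif4a2 (with Rfc4), Eif2b4 (with Snx17) and Eif1ad (with Banf1). The sources used here do not give how reads shared by several genes were divided, or whether strand was used, so levels of these genes are uncertain.

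Among the factors that guard start codon choice, Eif1 (chromosome 11, 100319885 to 100322096), which keeps the scanning ribosome open, had the highest level. It stood at 309.17, 286.83 and 314.52 FPKM in Aged libraries, against 297.65, 305.02 and 323.53 FPKM in Young libraries. Its close copy Eif1b was at 102.06, 100.31 and 108.52 FPKM in Aged and 102.78, 96.72 and 103.08 FPKM in Young libraries. The ranges of both genes overlapped between the ages (limma adjusted p = 0.890 and 0.801). The mRNA of eIF1A, which works beside eIF1 on the small subunit, came chiefly from the X-linked copy: Eif1ax averaged 117.1 ± 7.98 FPKM in Aged and 115.95 ± 5.35 FPKM in Young libraries (SD, n = 3 each). The autosomal Eif1a was at 13.76, 15.44 and 11.84 FPKM in Aged and 16.27, 15.49 and 14.01 FPKM in Young libraries. Its log2 change of -0.15 ± 0.10 (SE) had an interval of -0.37 to 0.07, which includes 0 (limma adjusted p = 0.617). Eif1ad, which carries a domain like that of eIF1A, was at 34.35, 33.21 and 35.55 FPKM in Aged and 31.69, 32.96 and 30.46 FPKM in Young libraries. All its Aged values lay above all its Young values, with a log2 change of 0.11 ± 0.05 (SE) that did not pass (unadjusted p = 0.0491, limma adjusted p = 0.421).

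Of the genes that bring the initiator tRNA, Eif2s3x, the gamma subunit of eIF2 that binds GTP and the tRNA, was at 126.35, 126.30 and 125.33 FPKM in Aged and 128.00, 129.35 and 121.10 FPKM in Young libraries. Eif2s2, the beta subunit, averaged 74.9 ± 4.13 FPKM in Aged and 75.2 ± 1.31 FPKM in Young libraries (SD, n = 3 each). Both means differed by less than the spread between replicates. The rule leaves out Eif2s1, the alpha subunit of eIF2, so its level is not given here. Eif2a, an alternative tRNA carrier that is not a subunit of eIF2, averaged 25.05 ± 2.81 FPKM in Aged and 23.9 ± 0.714 FPKM in Young libraries. Eif2d (chromosome 1, 131153181 to 131187658), which can deliver tRNA without GTP and helps recycle ribosomes, was at 20.20, 20.59 and 18.21 FPKM in Aged and 17.94, 17.37 and 16.67 FPKM in Young libraries. Its groups did not overlap, although Aged 3 lay only a little above Young 1. The log2 change was 0.17 ± 0.06 (SE), with an unadjusted p of 0.0245 and a limma adjusted p of 0.323.

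The eIF2B exchange factor, whose 5 subunits together return eIF2 to its GTP form, had 3 subunits with a log2 change above 0 and 2 below, none of which passed. Eif2b2, of the regulatory part, was at 35.98, 37.57 and 38.39 FPKM in Aged and 36.40, 31.10 and 33.75 FPKM in Young libraries, with an overlap of Aged 1 and Young 1. Eif2b4, also of that part, was at 23.03, 27.13 and 25.55 FPKM in Aged and 22.74, 20.12 and 23.64 FPKM in Young libraries, again with an overlap. Their log2 changes were 0.14 ± 0.06 and 0.18 ± 0.08 (SE, limma adjusted p = 0.414 and 0.421). Young 2 was the lowest library for both genes, and without it the log2 changes were 0.09 and 0.11. Eif2b1, the remaining regulatory subunit, was at 25.80, 26.09 and 24.32 FPKM in Aged and 24.23, 23.62 and 23.59 FPKM in Young libraries, without overlap (adjusted p = 0.544). The catalytic part holds Eif2b5 and Eif2b3. Eif2b5 averaged 34.5 ± 0.647 FPKM in Aged and 35.07 ± 0.664 FPKM in Young libraries (SD, n = 3 each). Eif2b3 was at 12.72, 12.31 and 12.66 FPKM in Aged and 13.61, 16.45 and 13.31 FPKM in Young libraries, so all Aged values were below all Young ones. Young 2 stood apart from the other Young libraries, and the log2 change of -0.18 ± 0.08 (SE) did not pass (unadjusted p = 0.0554, limma adjusted p = 0.436). Without Young 2 the log2 change was -0.09. Summed over the 5 subunits, the level was 135.0 ± 3.39 FPKM in Aged and 129.3 ± 3.41 FPKM in Young libraries, and the sums overlapped.

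eIF3, the scaffold that holds the small subunit, mRNA and eIF4F together, was the largest complex, with 14 genes. Outside Eif3j1 and Eif3j2, the means over the 6 libraries ran from 78.5 FPKM for Eif3m to 172.9 FPKM for Eif3h. Eif3h was at 175.02, 168.43 and 167.75 FPKM in Aged and 169.29, 178.12 and 178.74 FPKM in Young libraries, and Eif3f was close to it with means of 172.6 FPKM in Aged and 164.8 FPKM in Young libraries. Eif3a, the largest core subunit, averaged 89.2 ± 1.17 FPKM in Aged and 90.1 ± 2.04 FPKM in Young libraries (SD, n = 3 each). Eif3b, which carries the RNA recognition and scaffold domains of the core, averaged 137.2 ± 2.20 FPKM in Aged and 136.7 ± 5.89 FPKM in Young libraries. Eif3d, a cap-binding subunit, averaged 99.4 ± 5.83 FPKM in Aged and 96.9 ± 3.36 FPKM in Young libraries. For these 12 subunits the groups overlapped, and log2 changes ran from -0.04 (Eif3h) to 0.07 (Eif3f). The complex summed to 1491 ± 24.3 FPKM in Aged and 1486 ± 3.90 FPKM in Young libraries.

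The member with the largest log2 change was Eif3j2 (chromosome 18, 43475418 to 43477796), a copy of Eif3j1 (chromosome 2, 122028546 to 122056598), which encodes the loosely bound eIF3 subunit that controls access of mRNA to the decoding site. Eif3j2 was at 6.74, 4.87 and 8.50 FPKM in Aged and 11.90, 8.21 and 9.84 FPKM in Young libraries. Aged 3 lay above Young 2, so the groups overlapped, and the log2 change of -0.53 ± 0.18 (SE) had an unadjusted p of 0.0179 and a limma adjusted p of 0.289. Without Aged 2 the log2 change was -0.34. These values rest on about 61.2 to 152.0 estimated reads per library. The coding sequences of the pair were identical at all 783 aligned bases, and 91.8% of the 50-base windows of the Eif3j2 transcript occurred in a transcript of another gene, chiefly Eif3j1. Eif3j1 was at 33.34, 38.16 and 30.84 FPKM in Aged and 32.53, 34.15 and 31.82 FPKM in Young libraries. The library with the highest Eif3j1 in the Aged group, Aged 2, had the lowest Eif3j2, and Aged 3 was the reverse. Added together, the pair was at 40.08, 43.03 and 39.34 FPKM in Aged and 44.43, 42.36 and 41.66 FPKM in Young libraries, with overlapping groups and a log2 ratio of -0.07. The value of either gene alone is therefore uncertain.

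**Figure D2:**
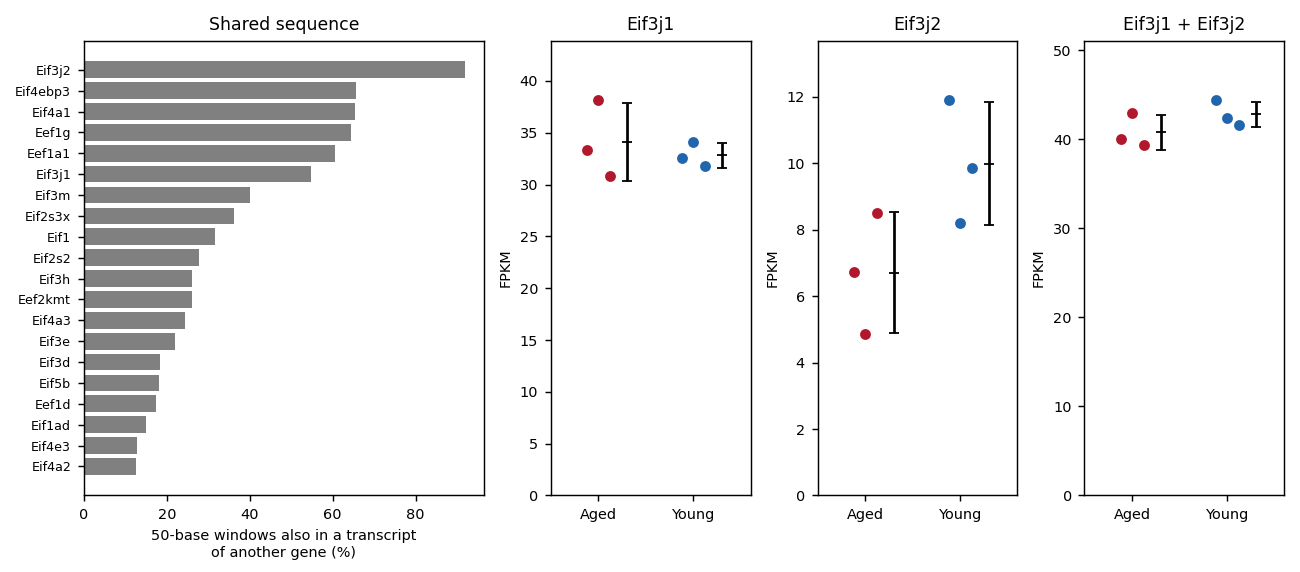
Left, percent of 50-base transcript windows that also occur, in either orientation, in a transcript of another gene, for the 20 members over 10%. Right, FPKM of Eif3j1, of Eif3j2 and of their sum in each library, with mean and SD (n = 3). The sum averaged 40.8 FPKM in Aged and 42.8 FPKM in Young libraries, with overlap.

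The eIF4F complex joins the cap-binding eIF4E, the scaffold eIF4G and the RNA helicase eIF4A. Eif4a1 (chromosome 11, 69666936 to 69672423), the main helicase of proliferating cells, was at 549.60, 509.75 and 546.79 FPKM in Aged and 545.62, 559.62 and 537.08 FPKM in Young libraries, and the groups overlapped. Its paralog Eif4a2 (chromosome 16, 23107444 to 23114136), which is more prominent in brain and slowly dividing tissue, was at 67.84, 68.71 and 69.89 FPKM in Aged and 64.16, 63.23 and 60.55 FPKM in Young libraries. All Aged values of Eif4a2 were above all Young values, and each group was tight. The log2 change was 0.13 ± 0.04 (SE, interval 0.05 to 0.22), with an unadjusted p of 0.00740 and a limma adjusted p of 0.2096, so it did not pass. Eif4a1 was 8.10, 7.42 and 7.82 times the level of Eif4a2 in Aged libraries, against 8.50, 8.85 and 8.87 times in Young libraries, without overlap. Eif4a3, a helicase of the exon junction complex and not of eIF4F, averaged 132.9 ± 8.18 FPKM in Aged and 129.3 ± 4.45 FPKM in Young libraries (SD, n = 3 each).

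The 2 helicase mRNAs were identical at 78.6% of 1213 aligned coding bases. A stretch of 60 coding bases over the codons of the DEAD box, the motif that names this helicase family, is shown from the GENCODE transcripts on GRCm38, read on the coding strand (minus for Eif4a1, plus for Eif4a2), with capitals at the 8 bases that differ between the paralogs. It spans coding bases 520 to 579 of Eif4a1 and 523 to 582 of Eif4a2, counted from the start codon, and the DEAD box lies at bases 25 to 36 of the stretch.
Eif4a1: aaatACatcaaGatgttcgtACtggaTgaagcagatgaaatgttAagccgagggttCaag
Eif4a2: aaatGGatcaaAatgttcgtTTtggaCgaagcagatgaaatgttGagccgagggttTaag

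None of the other genes of the cap complex passed either. Eif4e (chromosome 3, 138526179 to 138559696), which binds the cap, was at 66.47, 62.75 and 63.98 FPKM in Aged and 61.24, 62.27 and 62.31 FPKM in Young libraries. The groups did not overlap, but the log2 change was only 0.05 ± 0.04 (SE, limma adjusted p = 0.649), and 0.03 without Aged 1. Eif4e2, a cap-binding repressor paralog, averaged 37.2 ± 0.936 FPKM in Aged and 38.7 ± 2.93 FPKM in Young libraries (SD, n = 3 each). Eif4e3 lay at 0.07 to 0.52 FPKM in Aged and 0.07 to 0.58 FPKM in Young libraries. Eif4e1b, known from oocytes, was listed at 0 in 2 Aged and 2 Young libraries. Neither reached a mean of 1 FPKM, so neither was tested. The scaffold Eif4g1 was at 136.41, 136.77 and 138.52 FPKM in Aged and 143.44, 139.63 and 141.08 FPKM in Young libraries, and Eif4g3, its paralog, at 42.08, 44.51 and 44.09 FPKM in Aged and 46.58, 45.53 and 46.99 FPKM in Young libraries. Both had all Aged values below all Young values, with log2 changes of -0.04 ± 0.03 and -0.09 ± 0.04 (SE, limma adjusted p = 0.651 and 0.452). Eif4g2, which lacks the eIF4E-binding region and serves cap-independent initiation, averaged 173.6 ± 2.22 FPKM in Aged and 171.7 ± 1.67 FPKM in Young libraries. The helicase cofactors stood with Eif4b at 111.2 FPKM in Aged and 109.6 FPKM in Young libraries and Eif4h at 227.3 FPKM in Aged and 220.5 FPKM in Young libraries. Both had overlapping groups.

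The smallest p among members was that of Eif4ebp1 (gene 13685, chromosome 8, 27260329 to 27276674), which encodes 4E-BP1, the repressor that in its unphosphorylated form takes eIF4E away from eIF4G. It was at 63.95, 64.82 and 69.37 FPKM in Aged and 58.44, 53.42 and 57.36 FPKM in Young libraries. All Aged values were above all Young values, and the lowest Aged library exceeded the highest Young one by more than the SD of either group. The means were 66.05 ± 2.91 FPKM in Aged and 56.4 ± 2.64 FPKM in Young libraries (SD, n = 3 each). The log2 change was 0.22, with an SE of 0.05 and an interval of 0.11 to 0.34. The unadjusted limma p was 0.00165, but the limma adjusted p over 11912 genes was 0.102, so the gene was not called. Across the alternatives the adjusted p ran from 0.0778 to 0.283, without a call in any of them. Relative to Eif4e, Eif4ebp1 stood at 0.962, 1.03 and 1.08 in Aged and 0.954, 0.858 and 0.921 in Young libraries, a ratio of FPKM values that did not overlap but came close at Aged 1 and Young 1.

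Eif4ebp2, the form known best from brain, was at 59.86, 67.47 and 64.00 FPKM in Aged and 60.35, 65.26 and 59.48 FPKM in Young libraries, with overlap and a log2 change of 0.05 ± 0.06 (SE). Its level was close to that of Eif4ebp1, so both repressors were present in similar amounts of mRNA. Relative to Eif4ebp2, Eif4ebp1 stood at 1.068, 0.961 and 1.084 in Aged and 0.968, 0.819 and 0.964 in Young libraries, with overlap. Eif4ebp3 lay at 5.09, 4.80 and 5.55 FPKM in Aged and 4.99, 5.62 and 5.15 FPKM in Young libraries. Eif4enif1, the transporter that brings eIF4E into the nucleus, averaged 17.9 ± 0.745 FPKM in Aged and 17.2 ± 1.14 FPKM in Young libraries (SD, n = 3 each). Summed over these 4 genes, the level was 146.8, 155.75 and 156.09 FPKM in Aged and 140.56, 140.56 and 140.43 FPKM in Young libraries. This sum was 1.09 times as high in Aged libraries, and of the 4 genes only Eif4ebp1 did not overlap between the ages.

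Eif4ebp1 and Eif4ebp2 were identical at 69.1% of 346 aligned coding bases. A stretch of 60 coding bases over the codons of their eIF4E-binding motif, the contact through which they compete with eIF4G, is shown from the GENCODE transcripts on GRCm38 (coding strand, plus for Eif4ebp1 and minus for Eif4ebp2), with capitals at the 16 bases that differ. It spans coding bases 142 to 201 of Eif4ebp1 and 145 to 204 of Eif4ebp2, and the motif lies at bases 16 to 36 of the stretch.
Eif4ebp1: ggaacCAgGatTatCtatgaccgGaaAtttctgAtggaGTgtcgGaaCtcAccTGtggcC
Eif4ebp2: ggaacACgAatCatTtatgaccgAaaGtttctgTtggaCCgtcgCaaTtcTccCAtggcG

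**Figure D3:**
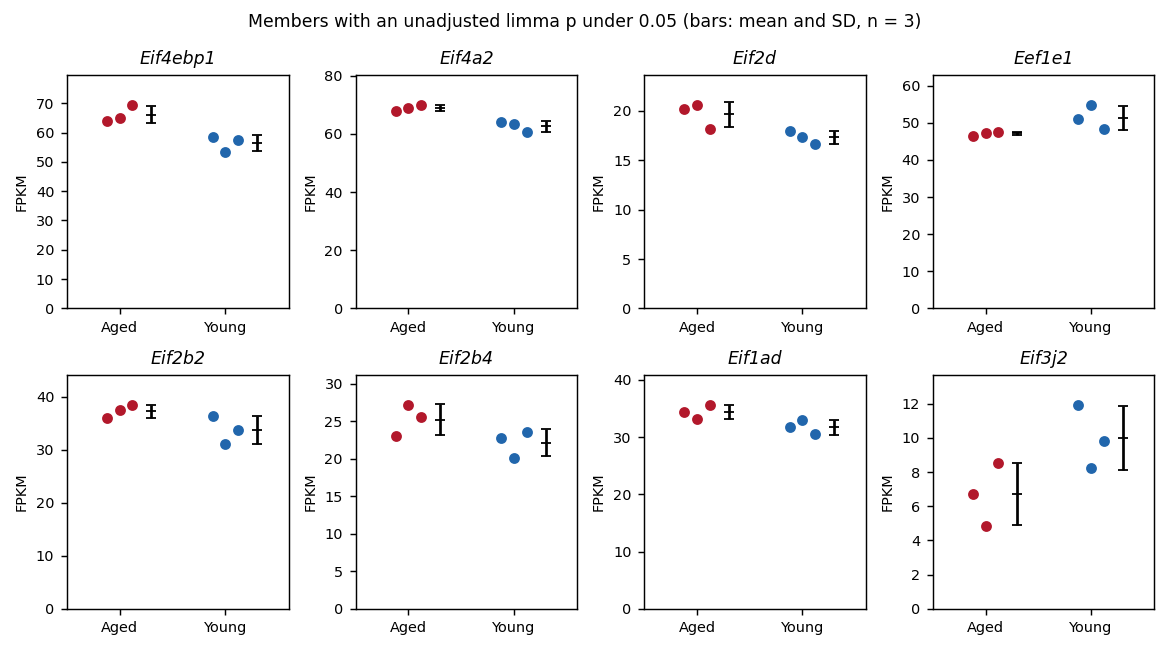
FPKM of the 8 members with an unadjusted limma p under 0.05, one point per library, with mean and SD (n = 3) at the side of each group and axes that start at 0. Aged and Young points do not overlap for Eif4ebp1, Eif4a2, Eif2d, Eef1e1 and Eif1ad, and overlap for Eif2b2, Eif2b4 and Eif3j2. None passed at an adjusted p under 0.05.

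The factors of subunit joining overlapped between the ages. Eif5, which makes eIF2 hydrolyse its GTP at the start codon, was at 109.46, 112.45 and 110.09 FPKM in Aged and 112.60, 110.73 and 115.45 FPKM in Young libraries. Eif5b, the GTPase that joins the subunits, averaged 16.6 ± 1.05 FPKM in Aged and 16.5 ± 0.225 FPKM in Young libraries, and Eif6, which keeps free large subunits apart, 64.7 ± 3.82 FPKM in Aged and 61.8 ± 2.84 FPKM in Young libraries (SD, n = 3 each). Log2 changes of the 3 genes ran from -0.03 to 0.06.

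eIF5A, despite its name, relieves stalled elongation and aids termination, and it is the protein known for the modified lysine hypusine. Eif5a (chromosome 11, 69916714 to 69921958) was at 753.53, 743.97 and 753.60 FPKM in Aged and 746.47, 733.44 and 727.27 FPKM in Young libraries, with an overlap of Aged 2 and Young 1. Eif5a2 (chromosome 3, 28781276 to 28798846) was at 6.13, 5.25 and 5.33 FPKM in Aged and 5.68, 5.24 and 5.18 FPKM in Young libraries. Eif5a thus carried nearly all eIF5A mRNA at both ages, at 122.9 to 141.7 times Eif5a2 in Aged and 131.4 to 140.4 times in Young libraries. The log2 change of Eif5a, 0.03 ± 0.02 (SE, limma adjusted p = 0.706), turned to -0.03 after quantile normalization, so no direction is given. The pair was identical at 73.2% of 459 aligned coding bases, and the stretch over the hypusine codon is shown because both printed sequences carry the same lysine codon, one in a gene of high and one in a gene of low level. Capitals mark the 9 bases that differ between the paralogs, the codon of the modified lysine lies at bases 28 to 30, and both stretches span coding bases 121 to 180 (GRCm38, coding strand, minus for Eif5a and plus for Eif5a2).
Eif5a: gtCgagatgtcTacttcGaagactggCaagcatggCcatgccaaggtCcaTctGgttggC
Eif5a2: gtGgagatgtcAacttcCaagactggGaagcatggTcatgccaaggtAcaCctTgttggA

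The elongation factors Eef1a1 and Eef2 held the highest levels of all members. Eef1a1 (chromosome 9, 78478449 to 78489151), the GTPase that brings aminoacyl-tRNA to the ribosome, was at 4282, 4269 and 4478 FPKM in Aged and 4380, 4399 and 4353 FPKM in Young libraries. Aged 3 was the highest and Aged 2 the lowest of the 6, so the Young values lay inside the Aged range. Its log2 change was -0.01 ± 0.02 (SE, interval -0.06 to 0.04, limma adjusted p = 0.900). Eef1a2, the form of mature neurons and muscle, lay at 0.79, 0.27 and 0.61 FPKM in Aged and 0.69, 0.43 and 0.35 FPKM in Young libraries, under the filter, although its coding sequence is identical to that of Eef1a1 at 80.1% of 1386 aligned bases. Eef2 (chromosome 10, 81176631 to 81182498), which moves the ribosome by a codon, was at 1088, 1097 and 1075 FPKM in Aged and 1089, 1087 and 1099 FPKM in Young libraries. Its log2 change was -0.0069 ± 0.02 (SE, interval -0.06 to 0.04, limma adjusted p = 0.939). On the FPKM scale, Eef1a1 was 3.89 to 4.17 times as high as Eef2 in Aged and 3.96 to 4.05 times in Young libraries.

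Of the exchange factor eEF1B, which recharges eEF1A with GTP, the structural subunit Eef1g was at 432.86, 407.47 and 459.48 FPKM in Aged and 432.14, 426.50 and 434.19 FPKM in Young libraries. The exchange subunit Eef1b2 averaged 195.7 ± 8.80 FPKM in Aged and 191.3 ± 4.05 FPKM in Young libraries (SD, n = 3 each). The other exchange subunit, Eef1d, was at 112.94, 111.32 and 117.25 FPKM in Aged and 106.21, 111.23 and 109.81 FPKM in Young libraries. Its groups were apart only by the gap of Aged 2 to Young 2, and its log2 change of 0.06, or 0.04 without Aged 3, did not pass (limma adjusted p = 0.577). Eef1e1 (chromosome 13, 38644207 to 38659058), which despite its name works in the multi-enzyme complex of tRNA synthetases, was at 46.56, 47.27 and 47.57 FPKM in Aged and 51.13, 54.79 and 48.31 FPKM in Young libraries. All its Aged values were below all its Young values, with a log2 change of -0.12 ± 0.05 (SE, unadjusted p = 0.0422, limma adjusted p = 0.398). Young 2 was the highest library, and without it the log2 change was -0.08. Eef2k, the kinase that inhibits eEF2, was at 14.05, 14.87 and 12.76 FPKM in Aged and 13.91, 13.40 and 14.23 FPKM in Young libraries, with a log2 change of 0.0024 ± 0.07 (SE). Eef2kmt, a methyltransferase of eEF2, was at 10.72, 11.95 and 11.77 FPKM in Aged and 12.30, 12.44 and 12.43 FPKM in Young libraries. Its groups did not overlap (limma adjusted p = 0.605), and Aged 1 was the lowest library. Its log2 change was -0.10, and -0.06 without Aged 1.

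By complex, the summed FPKM of Aged libraries ran from 0.967 times that of Young libraries for the kinase and methyltransferase of eEF2 to 1.09 times for the eIF4E-binding proteins. Of the 12 groups, the sums of the eIF4E-binding proteins alone did not overlap between the ages. eIF2B followed at 1.04 times, and the other 9 groups at 0.992 to 1.02 times. These sums have no test, and a sum follows its highest members. Of the 11912 single genes tested, 17.6% did not overlap in either direction. Among the 4 genes of the eIF4E-binding proteins only Eif4ebp1 did not overlap. It averaged 66.05 FPKM in Aged and 56.4 FPKM in Young libraries and was not called. All 58 members together summed to 11322 ± 208.0 FPKM in Aged and 11312 ± 6.36 FPKM in Young libraries (SD, n = 3 each), with the 3 Aged libraries more spread than the 3 Young ones.

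**Figure D4:**
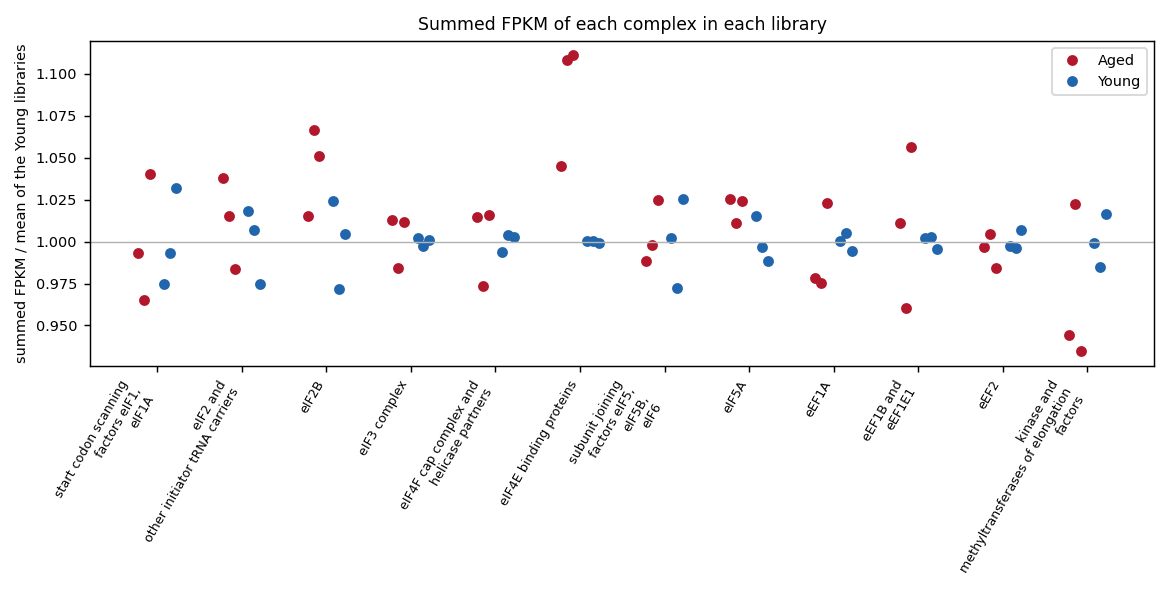
Summed FPKM of each complex in each library, divided by the mean of the 3 Young libraries (the axis does not start at 0). The 3 Aged libraries lie above the 3 Young ones for the eIF4E-binding proteins, and Aged and Young points overlap for the other 11 groups. Of single genes tested, 17.6% did not overlap in either direction.

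Other genes of translation, from 4 lists, are given for comparison. Of 46 genes, all tested, 0 passed at a limma adjusted p under 0.05 in either direction, and 0 had an unadjusted p under 0.05, where 11.9% of all genes tested did. Log2 changes ran from -0.18 to 0.19, with a median of -0.0019. Among the 20 partners and regulators of initiation factors, which include poly(A)-binding proteins and the eIF4E kinases Mknk1 and Mknk2, 8 were above 0 and 12 below, with a median of -0.02. The abundant mRNA-binding protein Ybx1 averaged 486.0 FPKM in Aged and 470.9 FPKM in Young libraries, and Pabpc1, the main cytoplasmic poly(A)-binding protein, 313.8 FPKM in Aged and 321.9 FPKM in Young libraries. Of the 7 termination and recycling factors, 3 were above 0 and 4 below (median -0.0016). Of the 10 genes that modify eIF5A and eEF2 or serve selenocysteine, 5 were above 0 and 5 below (median 0.02), and the hypusine enzymes Dhps and Dohh averaged 18.4 and 46.03 FPKM in Aged and 18.8 and 46.9 FPKM in Young libraries. Of the 9 mitochondrial translation factors, 4 were above 0 and 5 below (median -0.0012). Ybx1, Pabpc1, Dhps and Dohh were named after their values were seen.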

How the data were processed

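Bulk RNA sequencing of rRNA-depleted total RNA was done on cultured neural stem cells, per the labels' protocols. The deposited values are FPKM with 2 decimals, per the file headers. The submitters' processing notes list TopHat, Cuffdiff and mm10, with no version or role. Strand use, read length, treatment of shared reads and scaling between libraries are not given in the sources used here.

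Since FPKM are not counts, limma 3.58.1 (R 4.3.3; lmFit, then eBayes with a trend) was fitted to log2(FPKM + 1) of the 11912 genes averaging 1 FPKM or more, on the 6 libraries. Tests were two-sided. P-values were adjusted over all these genes by the Benjamini-Hochberg method, and 0.05 was the threshold. The fit was also run on simulated data, which are not used here to judge whether changes as small as those of the members could be found. Log2 changes on this scale understate those of low genes. Depth was estimated from read steps in low values: 75.2% to 78.3% of values near 1 to 3 reads came within 0.15 of whole reads (30.0% by chance), a share raised by fitting the step to them, and 41.2% to 58.0% of those at 4 to 10 reads. GENCODE M21 (GRCm38) gave coordinates, transcripts and shared 50-base windows, with all 58 members matched by RefSeq accession (Python 3.11.15, pandas 2.3.3, Biopython 1.88). Sums and ratios have no test. The rule for members uses symbols and no measured value, but it, the lists and the tests were chosen with earlier results of these data known. Per-library values are given for members with an unadjusted p under 0.05, the highest member of each complex and set paralogs. Those of other members, chiefly ones whose groups did not overlap, were chosen after values were seen. Alternatives were pseudocounts of 0.1 and 5, other filters, 3 scalings, no trend, a replicate block and leaving out each library.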

Additional observations from a re-analysis of the deposited data

How the results depend on the processing

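In all 15 alternatives 0 members and 0 genes of the 4 other lists passed at an adjusted p under 0.05. The count over all genes, 86, was 11 without limma's trend, 22 with a replicate block, and 39 to 70 with any 1 library left out (48 without Aged 1, 70 without Aged 2, 57 without Aged 3, 47 without Young 1, 45 without Young 2 and 39 without Young 3). Same-numbered libraries did not deviate together more than others (correlations of 0.008, -0.072 and 0.108, against -0.109 to 0.111 for differently numbered ones). With 3 libraries per group this cannot decide whether the numbers pair the samples. The members' median log2 change, 0.0095, was -0.0041 after rescaling to TPM, where the median of all genes was -0.0103, and 0.0044 to 0.0156 with a library left out. Members without overlap, 7 higher and 5 lower in Aged, numbered 7 to 13 and 6 to 9 with a library left out, where 13.6% to 15.3% and 12.8% to 14.7% of all genes did not overlap. Those higher in Aged numbered 5 after quantile normalization (8.2% of all genes) and after rescaling to TPM (7.51%), and 6 when centred on the median (10.35%), while 5 were lower in each. Of the 15 members without overlap or with an unadjusted p under 0.05, 8 moved by over 1.5 times with 1 library left out, all to a smaller change. The log2 ratio of summed FPKM moved to -0.0247 for eIF5A and -0.0225 for eEF2 after quantile normalization, and to -0.0203 for eEF2 after rescaling to TPM. Eif5a turned to -0.026 after quantile normalization. Over the alternatives, of 825 member values, 60 in 24 members changed sign, all but that of Eif5a in members whose change was under 1 SE. The cause was not tested. Depth limits Eif3j2, Eif4ebp3 and the 3 members under the filter most.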
